A study of Homo sapiens with 47 samples.

Results

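The HOX genes were described here in 47 single HEK293 cells. Members were all rows of the UMI table with a symbol made of HOX, a cluster letter from A to D and a paralog number, 33 of 18651 gene rows. HEK293 cells come from human embryonic kidney and carry adenovirus sequence that made them grow permanently. The labels describe growth in serum-containing medium, name no treatment, and give capture in 1 run of a microfluidic circuit, with ERCC spike-in RNA at 20000 molecules per cell. The molecules were primed with oligo-dT and tagged at the 5' end with unique molecular identifiers (UMIs), random tags that allow PCR copies of a molecule to be counted once. All cells are of 1 line and no label separates cultures, so they were treated as 1 sample: no groups were compared, no test was made, and spreads are between cells.

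HOX genes encode homeodomain transcription factors that give cells their position along the body axis. They lie in 4 clusters, on chromosomes 7 (HOXA), 17 (HOXB), 12 (HOXC) and 2 (HOXD). The paralog groups are numbered 1 to 13 from the 3' to the 5' end of a cluster. Genes near the 3' end are typically switched on early and anteriorly in the embryo, and genes near the 5' end later and posteriorly. In the mouse, genes of paralog group 11 are required for the metanephric kidney to form. Active clusters are marked by MLL complexes, silent ones by Polycomb complexes, and HOX proteins bind DNA with PBX and MEIS cofactors.

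Cell 52 stood apart in its mitochondrially encoded share, 18.7% of its endogenous UMIs, against 3.68% to 9.59% in the other cells. Without it the HOX share was 0.0777% and the HOXA part 53.6%. Cells had 29325 to 138647 endogenous UMIs and 2573 to 4717 spike-in UMIs. Of the markers, neuronal UCHL1, NEFM and NEFL had 817, 462 and 112 UMIs, while ENO2 and INA on that list had 50 and 15. Kidney epithelial KRT18 and KRT8 had 223 and 125. On the same kidney epithelium list PAX2 and PAX8 were low, with 8 and 1. The neuronal list (5 of 9 with a row) ranged over cells from 5 to 90 UMIs and the kidney epithelium list (4 of 10) from 0 to 19. Fibroblast markers (2 of 8) had 13 UMIs in all, 12 of them COL1A1, blood markers (4 of 8) 9, with CD74 at 0, and the pluripotency marker SOX2 18. Endothelial markers had no row. Their part in the HOX values was not tested.

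Of 39 HOX genes in the RefSeq annotation, 33 had a row and each of these had at least 1 UMI. Among all 18651 gene rows 17819 (95.5%) had at least 1 UMI, so this sets HOX rows little apart. HOXB1, HOXB8, HOXC4, HOXC12, HOXD4 and HOXD12 had no row in the table and were not analysed here. Summed over cells the HOX genes had 2271 of 2919198 endogenous UMIs, a share of 0.0778% (95% exact binomial interval 0.0746% to 0.0811%). This interval and those below cover counting error only. The median gene had 29 UMIs among HOX rows and 18 among all rows. At least 20 UMIs were reached by 23 HOX genes (69.7%) and by 9088 of all rows (48.7%). Each UMI marks the 5' end of 1 cDNA, so counts were compared between genes without division by length.

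Upstream sequences are shown for the most abundant HOX gene, for the leading gene of HOXD and for the HOXA gene with the fewest UMIs, because 5' tags start at such promoters. They are the 250 bases before the annotated start in RefSeq (GRCh38.p14), written 5' to 3' on the gene's strand. Where transcripts start in these cells cannot be read from counts per gene. Capitals mark the CCAAT box, the TATA box motif TATAAA, and the GC box motif GGGCGG, each on either strand, in places overlapping. Starts were listed for 16 of the 33 members, with 23 windows in all. No HOXB gene had a window, and HOXC5 was the only HOXC gene with one. Values over the HOX windows therefore describe mainly HOXA and HOXD genes, and HOXC9, HOXB6 and HOXA5 are not covered. HOXA10 has a pair of listed starts, at chr7:27174321-27174570 and chr7:27179862-27180111, both on the minus strand. HOXD13 has one at chr2:176092471-176092720 on the plus strand and HOXA2 one at chr7:27102684-27102933 on the minus strand.
HOXA10, start nearer HOXA9: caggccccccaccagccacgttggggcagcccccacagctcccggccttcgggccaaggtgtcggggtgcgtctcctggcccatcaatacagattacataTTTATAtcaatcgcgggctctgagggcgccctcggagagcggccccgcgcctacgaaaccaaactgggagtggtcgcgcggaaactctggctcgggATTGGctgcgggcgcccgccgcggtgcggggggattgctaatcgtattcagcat
HOXA10, start nearer HOXA11: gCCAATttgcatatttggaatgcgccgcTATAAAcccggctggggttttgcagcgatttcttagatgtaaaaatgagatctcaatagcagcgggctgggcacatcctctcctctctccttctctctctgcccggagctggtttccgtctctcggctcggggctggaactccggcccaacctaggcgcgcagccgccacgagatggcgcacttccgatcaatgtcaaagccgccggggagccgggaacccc
HOXD13: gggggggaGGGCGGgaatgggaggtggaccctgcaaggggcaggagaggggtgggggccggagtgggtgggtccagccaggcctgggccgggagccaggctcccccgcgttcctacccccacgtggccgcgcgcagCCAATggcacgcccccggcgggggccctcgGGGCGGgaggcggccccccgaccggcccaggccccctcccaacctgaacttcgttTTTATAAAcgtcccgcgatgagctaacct
HOXA2: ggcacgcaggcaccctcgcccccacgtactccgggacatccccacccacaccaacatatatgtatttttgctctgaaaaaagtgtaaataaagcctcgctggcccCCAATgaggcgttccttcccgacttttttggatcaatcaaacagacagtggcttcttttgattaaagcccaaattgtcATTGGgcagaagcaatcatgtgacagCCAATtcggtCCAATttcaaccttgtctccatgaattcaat

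The HOXA10 windows held 24 and 19 CG dinucleotides, the HOXD13 window 21 and the HOXA2 window 8. The median was 21 over the HOX windows, from 0 to 40, and 11 over 35116 windows of all genes. The window with 40 belonged to HOXA13, which had 20 UMIs against 532 for HOXA10. How the count of CG goes with level over the genes was not tested. On either strand CCAAT was found in 14 of 23 HOX windows and in 32.01% of all windows. GGGCGG was found in 13 HOX windows and 42.6% of all, and TATAAA in 5 HOX windows and 10.7% of all. The TATAAA matches lay in windows of HOXA3, HOXA9, HOXD13 and both starts of HOXA10. HOXA3 alone had 7 of the windows, and a match is a description of letters, not of a bound factor.

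HOXA supplied 1217 UMIs, or 53.6% of all HOX UMIs (51.5% to 55.7%). HOXD followed with 367 (16.2%, 14.7% to 17.7%), HOXC with 346 (15.2%, 13.8% to 16.8%) and HOXB with 341 (15.0%, 13.6% to 16.6%). The intervals of HOXD, HOXC and HOXB overlap one another, and that of HOXA lies above them. HOXA had the most UMIs in 40 of 47 cells. Without HOXA10, its most abundant gene, HOXA would hold 39.4% of the remaining 1739 HOX UMIs, HOXD 21.1%, HOXC 19.9% and HOXB 19.6%. The full sums cover unequal numbers of genes, 11 in HOXA, 8 in HOXB, 7 in HOXC and 7 in HOXD. Their means per gene were 111, 42.6, 49.4 and 52.4 UMIs. All HOX genes without a row belong to HOXB, HOXC or HOXD.

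Posterior genes carried most of the counts in HOXA, HOXC and HOXD, and central genes did in HOXB. Posterior genes, here groups 9 to 13, had 1467 UMIs or 64.6% (62.6% to 66.6%). Central genes, groups 4 to 8, had 637 (28.05%, 26.2% to 29.9%) and anterior genes, groups 1 to 3, had 167 (7.35%, 6.31% to 8.51%). The mean per gene was 105 UMIs over 14 posterior, 53.1 over 12 central and 23.9 over 7 anterior genes. Posterior genes made up over 50% of the HOX UMIs in 44 of 47 cells, with a median of 66.7% and a range of 37.9% (cell 52) to 82.9% (cell 20). Without HOXA10 the posterior part would be 53.8%, the central 36.6% and the anterior 9.60%. In HOXA, HOXC and HOXD the posterior genes held 780 of 1217, 297 of 346 and 345 of 367 UMIs. In HOXB they held 45 of 341, and the central genes 223. The posterior sums cover 4 genes in HOXA, 4 in HOXC, 4 in HOXD and 2 in HOXB. Central genes with a row numbered 4 in HOXA, 4 in HOXB, 3 in HOXC and 1 in HOXD. Group 10 was the most abundant paralog group with 650 UMIs, followed by group 9 with 345, group 13 with 250, group 6 with 223 and group 11 with 222. Of the groups with a row the fewest were in group 4, with 34 over 2 genes, HOXC4 and HOXD4 having no row. The group sums cover 2 to 4 genes each, and group 12 had no row.

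**Figure D1:**
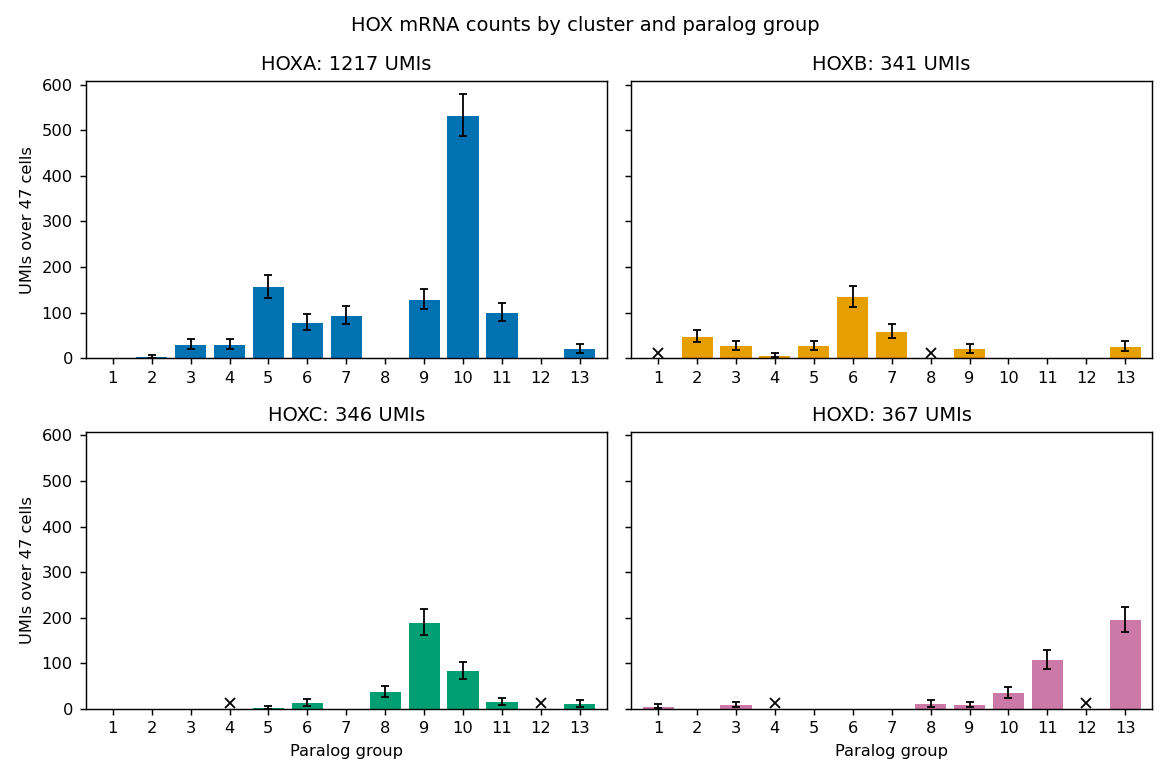
UMIs summed over 47 cells (vertical axis) for HOX genes by paralog group (horizontal axis, 1 at the 3' end and 13 at the 5' end), in a panel per cluster. Bars start at 0, error bars are 95% exact Poisson intervals, crosses mark genes without a row in the table, and empty positions without a cross are paralogs that the cluster lacks or that are not shown. HOXA10 stands at 532 UMIs, and the highest gene is at group 6 in HOXB, 9 in HOXC and 13 in HOXD.

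HOXA10, a regulator of uterine and blood development, was the most abundant HOX gene and the one member found in every cell. It had 532 UMIs (exact Poisson interval 488 to 579), 23.4% of all HOX UMIs. Its count per cell was 2 at the lowest, 10 at the median and 32 at the highest, in cell 57, with a mean of 11.3 ± 7.92 (SD, n = 47). The table as a whole had 1033 genes with a UMI in every cell, 5.54% of rows, and HOXA10 ranked 819 by UMIs. Divided by the spike-in recovery of 17.7%, its mean corresponds to 63.8 molecules per cell, if mRNA is counted as efficiently as spike-ins. HOXA10 had more UMIs than every other HOX gene in 26 cells and shared the top count in a further set, 33 cells in all. It exceeded HOXD13, the next gene in order, in 42 cells, fell below it in 3 and equalled it in 2.

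HOXD13, a gene of limb and digit formation, had 195 UMIs (169 to 224) in 44 cells, with 0, 3 and 15 as lowest, median and highest count. HOXC9, expressed at thoracic levels of the embryo, had 189 UMIs (163 to 218) in 39 cells, with 0, 4 and 13. These neighbours in the order cannot be told apart: HOXD13 was higher in 20 cells, HOXC9 in 21, and 6 were equal. The next in order were HOXA5, needed for lung development in the mouse, with 156 UMIs (132 to 182), HOXB6 with 134 (112 to 159) and HOXA9, a leukaemia-associated partner of MEIS1, with 128 (107 to 152). Their intervals overlap from each to the next. Per kilobase of the longest annotated transcript, HOXA10 was again first with 209 UMIs per kb, before HOXC9 with 125, HOXA5 with 94.1 and HOXD13 with 87.1. Ranks were taken among all 33 HOX genes with a row. Of the 23 genes with at least 20 UMIs, 7 kept their rank per kilobase. HOXA6 moved from rank 11 to 5, with 77.9 UMIs per kb against 46.1 for HOXA7, and HOXA13 from 22 to 28. HOXB6 and HOXA9 had 68.4 and 62.1 UMIs per kb, at ranks 7 and 8.

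Within HOXA, the 3' end of the cluster held genes at very different levels. HOXA2, which gives the second pharyngeal arch its identity, had 2 UMIs, 1 each in 2 cells. HOXA3, a gene of thymus and parathyroid formation, and HOXA4 had 29 UMIs each, in 16 and 18 cells. HOXA5, HOXA6 and HOXA7 had 156, 77 and 93 UMIs, in 39, 24 and 35 cells. At the 5' end HOXA9 had 128 UMIs in 37 cells and HOXA11, a paralog of the group needed for the mouse kidney, had 100 UMIs (81.4 to 122) in 33 cells. HOXA13, a gene of distal limb and genital tract development, had 20 UMIs in 15 cells, with at most 3 in a cell. The HOXA profile thus stepped down on both sides of HOXA10, to 128 at HOXA9 and 100 at HOXA11.

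In HOXB the peak was HOXB6, with 134 UMIs in 35 cells, higher than HOXB7 in 23 cells and lower in 11. HOXB7 had 58 UMIs in 29 cells. HOXB2, a hindbrain gene, had 47 UMIs in 22 cells. HOXB3 and HOXB5 had 26 UMIs each, in 14 and 13 cells. HOXB4, known from blood stem cells, had 5 UMIs, 1 each in 5 cells. HOXB9 had 20 UMIs in 15 cells and HOXB13, a marker of prostate epithelium, 25 UMIs in 12 cells. The low HOXB4 count stood between neighbours with 26 each. HOXB4 shares exons on the same strand with HOXB3, so reads in those parts may not be assigned to a single gene.

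In HOXC, HOXC9 had 189 UMIs, HOXC10, expressed in lumbar motor neurons, 83 UMIs in 28 cells and HOXC8 36 UMIs in 19 cells. HOXC9 exceeded HOXC10 in 31 cells and fell below it in 7. HOXC11, a paralog of HOXA11, had 15 UMIs in 8 cells, HOXC6 12 in 7, HOXC13, a hair follicle gene, 10 in 7, and HOXC5 1 UMI. In HOXD the highest counts were at the 5' end. HOXD1 had 4 UMIs, HOXD3 8, HOXD8 10, HOXD9 8, HOXD10 35, HOXD11 107 and HOXD13 195. HOXD11, which like HOXA11 belongs to the kidney-forming group in the mouse, was seen in 35 cells and HOXD10 in 18. HOXD13 exceeded HOXD11 in 26 cells and fell below it in 12. All 4 HOXD1 UMIs were in cell 5.

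**Figure D2:**
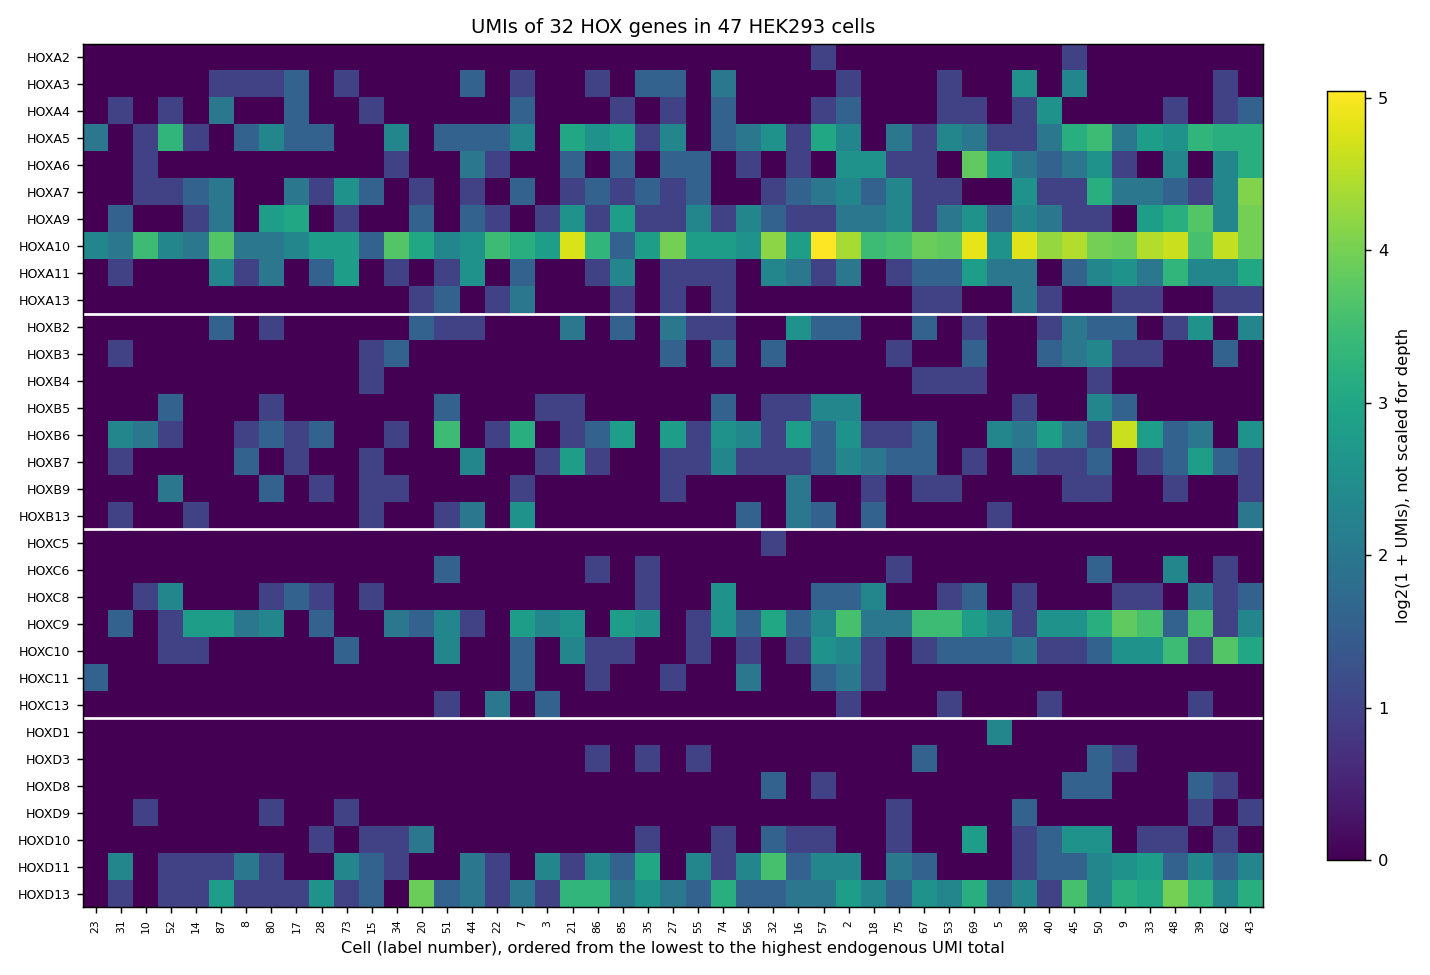
Each square is the UMI count of a HOX gene (32 rows, by cluster and paralog group, clusters split by white lines) in a cell (columns, named by label number and ordered by depth), on a log2(1 + UMIs) colour scale without scaling for depth. Cells run from 29325 endogenous UMIs at the left to 138647 at the right. The HOXA10 row is filled in all 47 cells, whereas the rows of HOXA2, HOXB4, HOXC5 and HOXD1 are nearly empty.

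Cells held a mixture of clusters rather than 1 each. UMIs of all 4 clusters were present in 44 of 47 cells. HOXA and HOXC were seen in 47 cells each (exact binomial interval 92.5% to 100% of cells), HOXD in 46 and HOXB in 44. HOXB was without a UMI in cells 23, 35 and 73, and HOXD in cell 23, the shallowest cell. Summed HOX counts per cell were 9 at the lowest (cell 23), 42 at the median and 112 at the highest (cell 43, the deepest). As a share of the cell's endogenous UMIs they were 0.0307% at the lowest, in cell 23, 0.0715% at the median and 0.130% at the highest, in cell 2, a 4.22-fold range. Cell 23 had 4 UMIs of HOXA10, 3 of HOXA5 and 2 of HOXC11. Cell 2 had 89 HOX UMIs over 20 genes, led by 20 of HOXA10 and 11 of HOXC9.

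The number of HOX genes seen in a cell followed its depth. It was 3 at the lowest, 14 at the median and 21 at the highest, in cell 50. Over the 47 cells its Spearman correlation with endogenous UMIs was 0.80, and that of summed HOX UMIs was 0.84. These are descriptions over cells of 1 run, and depth enters both measures. With each cell thinned to 29325 UMIs, the median was 11 genes, from 3 to 18, and the correlation with depth 0.34. The HOX share itself had a correlation of 0.40 with depth. Thinned cells had 9 to 40 HOX UMIs with a median of 21. In the thinned counts HOXA10 was still seen in 46 cells, HOXD13 in 39, HOXC9 in 35 and HOXA5 in 31. A gene without a UMI in a cell is therefore not shown to be off there.

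**Figure D3:**
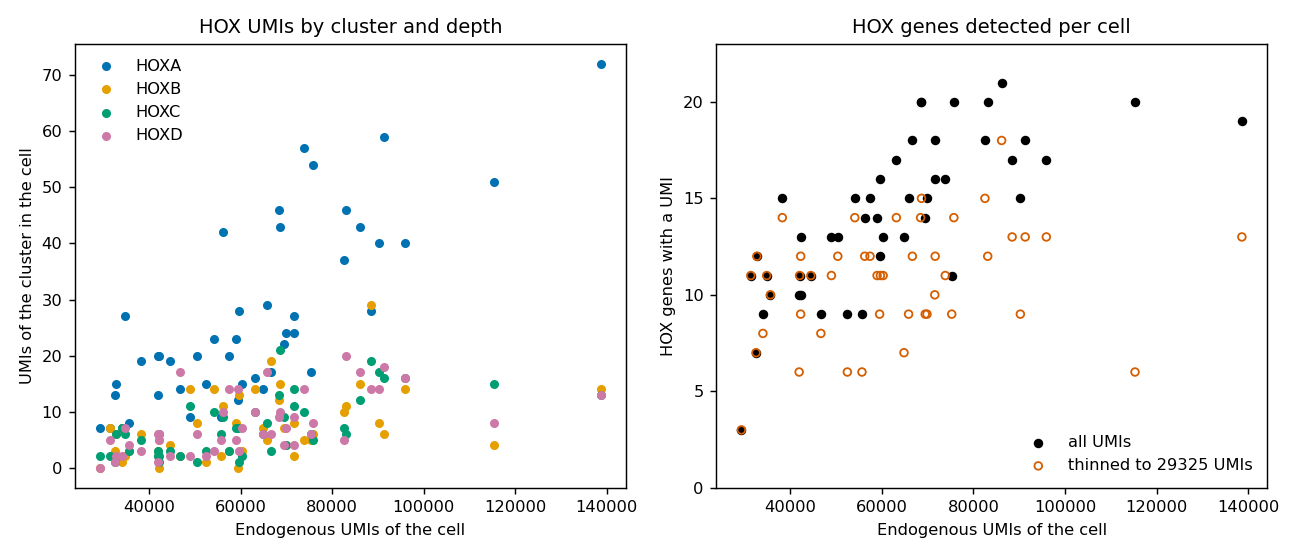
Left, UMIs of each HOX cluster in a cell (vertical axis) against the endogenous UMIs of the cell (horizontal axis), 1 point per cluster and cell. Right, the number of HOX genes with a UMI per cell, from all UMIs (filled) and after thinning to 29325 UMIs (open). HOXA points reach 72 UMIs, HOXB 29, and the median number of genes is 14 from all UMIs and 11 after thinning.

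The spread over cells was given as an index of dispersion. It sets a gene's counts against counts in proportion to cell depth and divides their chi-square statistic by the degrees of freedom. Its value is 1 under counting error alone and, for the same relative spread, it grows with the mean count. The 23 HOX genes with at least 20 UMIs had a median index of 2.06, from 1.26 (HOXA13) to 4.41 (HOXB6). The median over all 9088 such genes was 2.00, and over 52 spike-ins, against the spike-in UMIs of a cell, it was 2.11, from 0.757 to 3.97. Of the 23 HOX genes, 13 lay above the median of all genes. The index of HOXA10 was 3.58 and that of HOXA6 2.80. HOXB6 was the 1 HOX gene above the spike-in range. The spike-ins were not matched to HOX genes in count: the 78 spike-in rows had 166728 UMIs in all, and the HOX genes 2271. Because the index grows with the mean count, that range does not give the technical level for HOX genes. HOXB6 is described further because its index was the highest. HOXB6 had 24 of its 134 UMIs in cell 9, 10 in cell 51 and 0 in 12 cells, and its index was 2.68 without cell 9. Without cell 69, which held 13 of 77 UMIs, the index of HOXA6 was 1.68.

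**Figure D4:**
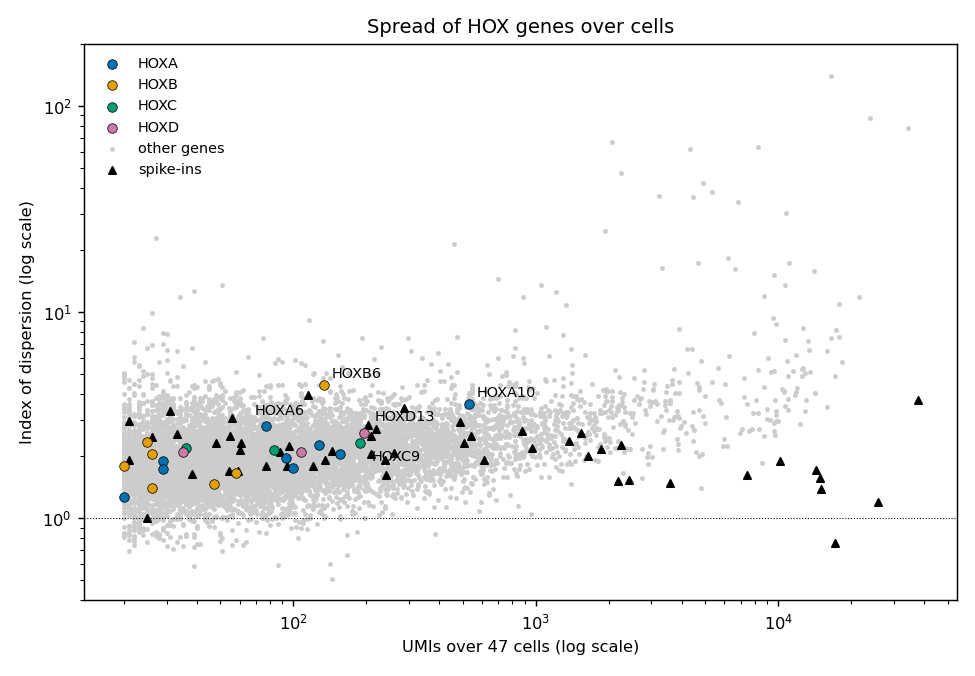
Index of dispersion over cells (vertical axis, log scale) against the UMIs summed over 47 cells (horizontal axis, log scale) for genes with at least 20 UMIs. Coloured points are HOX genes by cluster, grey points other genes and triangles spike-ins, and the dotted line is the value under counting error, 1. HOX genes lie within the grey cloud, with HOXB6 at 4.41 and HOXA10 at 3.58 highest among them.

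Correlations between single HOX genes had a median near 0. Counting error in sparse counts draws such correlations towards 0, so how far HOX genes vary together cannot be read from them. Over the 253 pairs of HOX genes with at least 20 UMIs, the median Spearman correlation of thinned counts was 0.03. It was 0.03 for 72 pairs in the same cluster, 0.02 for 181 pairs in different clusters and 0.01 for 17 adjacent pairs. The points share 1 run, and no single pair is read as a finding. The adjacent genes HOXA9 and HOXA10 had -0.30, the lowest of the adjacent pairs, and 0.02 in counts scaled for depth without thinning. Between the thinned sums of whole clusters the correlations were 0.11 (HOXA with HOXB) to 0.33 (HOXA with HOXD), all 6 above 0. The index of dispersion of the summed HOX UMIs was 4.54, above that of each HOX gene. The index grows with the mean count, which was 48.3 per cell for the sum and 11.3 for HOXA10. The higher index is therefore not read as genes varying together. After thinning, which lowers the counts, the index of the sum was 2.80.

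Antisense and other non-coding rows of the clusters were counted beside the coding genes. HOTAIRM1, a non-coding RNA of the 3' end of HOXA, had 200 UMIs (173 to 230) in 45 cells, with a median of 4 and at most 14 in a cell. Its neighbour HOXA2 had 2. HOXA11-AS had 69 UMIs in 25 cells against 100 for HOXA11, and both were seen in 18 cells. HOXB-AS3 had 68 UMIs in 30 cells, HOXD-AS2 44 in 20, 10 of them in cell 56, HOXA10-AS 43 in 20 and HOXA-AS2 23 in 12. HOXC-AS1, HOTAIR, HOXB-AS1, HOXD-AS1, HOXA-AS3, HOXC-AS3 and HOXC13-AS had 17, 13, 7, 6, 5, 2 and 1 UMIs. HOXB-AS2 and HOXC-AS2 had 0. Taking 3 counts over all cells as the limit that a count of 0 allows, their share was up to 0.000103% of UMIs. The row of the microRNA gene MIR10A, which lies between HOXB4 and HOXB5, had 4 UMIs, all in cell 80. Whether strand was used in counting is not given in the sources used here. In GENCODE release 29, exons of 17 of the 33 members overlap an opposite-strand row of the table, HOXA11 with HOXA11-AS among them, so reads in those parts may not be assigned to one strand. Exons on the same strand are shared by HOXB3 with HOXB4 and HOXB6, by HOXC6 with HOXC5 and HOXC9, and by HOXD10 with HOXD11. HOXC4 and HOXC5 have the same listed start in RefSeq, so the 1 UMI of HOXC5 cannot be set apart from HOXC4 by its 5' end.

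Cofactors and regulators of HOX genes were read from lists, and each count below is of rows with at least 20 UMIs out of the rows present. Among all rows the share with at least 20 UMIs was 48.7%. Of the cofactors of the PBX, MEIS and PKNOX families 6 of 9 reached it, with a median of 23 UMIs. PKNOX1 had 76 and PBX3 41, and MEIS1, the partner of HOXA9 in leukaemia, had 5. Of Polycomb genes 25 of 29 reached it (median 70 UMIs). RBBP7 and RBBP4, histone chaperones shared with other complexes, had 815 and 568, CBX6 285, and the H3K27 methyltransferase gene EZH2 199 in 44 cells. Of MLL and demethylase genes 14 of 15 reached it (median 70). DPY30, a shared subunit, had 805, PSIP1 270 and WDR5 221, and KMT2A, which encodes MLL1, 153 in 38 cells.

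Of retinoic acid genes 9 of 16 reached it (median 20.5), led by the carrier CRABP2 with 640, and with the corepressor NCOR1 at 122. The receptor genes RARA, RARB and RARG had 19, 19 and 10. Of CDX and posterior axis regulators 3 of 8 reached it, LIN28B with 90, CDX2, an activator of HOX genes, with 78 in 32 cells, and NR6A1 with 57. Of kidney development factors 8 of 12 reached it, with FOXC1 at 230 and GATA3 at 56. PAX2 had 8 and PAX8 1. Of other homeobox genes 25 of 41 reached it (median 32), led by DLX2 with 126, NKX2-5 with 111 and CUX1 with 108, all below HOXA10.

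The median gene flanking HOXA had 137 UMIs, against 77 for the median HOXA gene inside. The medians were 143 and 26 at HOXB, 205 and 15 at HOXC, and 56.5 and 10 at HOXD. TAX1BP1, HIBADH and SKAP2 beside HOXA had 257, 139 and 135 UMIs. ATP5G1, UBE2Z and CBX1 beside HOXB had 4706, 220 and 209. ATP5G2, HNRNPA1 and COPZ1 beside HOXC had 3843, 2783 and 497. ATP5G3, MTX2 and KIAA1715 beside HOXD had 4724, 167 and 72, and EVX2, a homeobox gene next to HOXD13, had 2. The flanking lists give neighbourhood and not distance.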

How the data were processed

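The deposited table holds raw UMI counts for each gene in each cell: its values are whole numbers with unequal totals. Per the labels' protocols, cDNA of all cells was amplified in 18 PCR cycles, pooled and tagmented, and 5' fragments received Ion Torrent adapters. Tools named in the submitters' processing notes are STAR 2.4.0a and cutadapt 1.2.1, with builds hg19 and GRCh37. The annotation, UMI collapsing, strand, multi-mapping reads and cell filter are not given in the sources used here. A row called GENE, which names no gene (0.0602% of UMIs), and 78 spike-in rows were kept out of the totals. All 47 columns were matched to the labels by cell number.

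Members and lists were chosen with earlier results of these data known. The naming rule was every HOX gene with a UMI and, of each list, the 3 members with the most UMIs; some genes it picks are not reported here, though sums and counts include them. The text adds a few further members chosen after their values were seen. Intervals are 95% exact Poisson or Clopper-Pearson. Thinning used 1 seeded draw without replacement. The index was tested on simulated data. Alternatives were TMM (edgeR 4.0.16) and DESeq2 1.42.0 size factors, spike-in scaling, thinning, filters and subsets of cells. Python 3.11.15, numpy 2.4.6, pandas 2.3.3, scipy 1.17.1 and R 4.3.3 were used.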

Additional observations from a re-analysis of the deposited data

How the results depend on the processing

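Of 61 values recomputed under the alternatives, 56 moved by less than a limit. For shares, parts and counts per cell the limit was the spread between cells, and for the count of detected genes 1.5 times. For the index of summed HOX UMIs it was the expected spread of the index, not a spread between cells. The HOX share stayed between 0.0752% and 0.0823% and the HOXA part between 52.05% and 55.3%. Counting a HOX gene as detected from 2 UMIs upward gave a median of 9 genes per cell in place of 14. The index of summed HOX UMIs was 4.54. It was 2.80 after thinning, which lowers the counts the index scales with, 5.67 with TMM, 5.71 with DESeq2 size factors and 10.02 with spike-in UMIs as the measure of depth. The cause of the last 3 was not tested. Without cell 52 it was 4.64. After the data had been seen, the index of 23 HOX genes was recomputed without the highest cell, and 8 moved by more than its expected spread. Per kilobase, 7 of 23 kept their rank among all 33 HOX genes, though counts of 5' ends do not call for division by length. No paired analysis was possible because the labels give 1 group. Depth limits the detection of genes with few UMIs per cell.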

Other observations

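HOXB3 and HOXD10 had the highest correlation of the 253 pairs in thinned counts, 0.57, and were seen together in 11 cells, with HOXB3 in 14 and HOXD10 in 18. The lowest was -0.41, for HOXA9 and HOXC10, which had 0.12 in counts scaled for depth without thinning. Both pairs were picked for their values from sparse counts.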
